A study of Arabidopsis thaliana with 9 samples.

Results

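The genes described here encode the parts of nuclear auxin signalling that sense the hormone, repress its response and remove it. They are the 29 Aux/IAA repressor genes, 5 genes of the TIR1/AFB receptors (TIR1, AFB1, AFB2, AFB3 and AFB5) and 6 genes of GH3 enzymes (GH3.1, GH3.2, GH3.3, GH3.5, GH3.6 and GH3.17). All 40 were taken by locus ID from the 27814 rows of the count table, with no threshold on measured values but with earlier results of these data known. The RefSeq annotation gives each of the 40 IDs the name used here as its symbol or as a synonym. A filter on low counts left 38 of them among the 21425 genes tested, and the repressor genes IAA15 and IAA34 did not pass it.

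The libraries came from whole seedlings of Arabidopsis thaliana, with 3 libraries in each of 3 groups and no treatment in any of them. Col-0 is the wild type, AtCXE15-OE is a transgenic line that overexpresses the carboxylesterase gene AtCXE15, and atd14-1 is a mutant in D14, the receptor gene for the hormone strigolactone. The question of the series was which transcripts respond to strigolactone, which the enzyme breaks down and the receptor perceives. Seedlings of all groups grew at 22 °C with 16 h of light and 8 h of dark, and their age is given as 8 days in one label and 10 days in another. The sources used here do not give the promoter of the transgene, the number of independent lines, the kind of atd14-1 allele or the hour of harvest.

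Auxin binds a TIR1/AFB F-box protein together with an Aux/IAA protein, and the F-box protein, as part of an SCF ubiquitin ligase, then marks the Aux/IAA protein for degradation. Without auxin, Aux/IAA proteins hold ARF transcription factors in a repressed state with TOPLESS co-repressors, and their loss lets ARFs act on target genes. Many Aux/IAA genes and several GH3 genes are themselves induced by auxin, and GH3 enzymes join auxin to amino acids, which lowers the free hormone. Transcript counts do not measure Aux/IAA protein, which is regulated by degradation.

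The short coding stretch through which an Aux/IAA protein is recognised by its receptor, the degron, is shown for the 7 Aux/IAA genes that passed the test in at least 1 comparison and for 2 close relatives that did not, IAA1 and IAA14. Each line gives 39 bases of the coding strand, 5′ to 3′, from the RefSeq genome TAIR10.1, and capitals mark the codons of the degron core (motif GGNTGGCCNCCN, searched in frame on the coding strand).
IAA2 (AT3G23030, chr3:8181381-8181419, minus strand): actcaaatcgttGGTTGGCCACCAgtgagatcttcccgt
IAA1 (AT4G14560, chr4:8361433-8361471, plus strand): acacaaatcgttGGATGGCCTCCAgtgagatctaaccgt
IAA7 (AT3G23050, chr3:8195565-8195603, plus strand): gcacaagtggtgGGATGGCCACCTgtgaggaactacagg
IAA14 (AT4G14550, chr4:8349472-8349510, minus strand): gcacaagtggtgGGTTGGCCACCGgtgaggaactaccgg
IAA16 (AT3G04730, chr3:1289724-1289762, minus strand): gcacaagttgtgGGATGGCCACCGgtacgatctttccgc
IAA8 (AT2G22670, chr2:9637722-9637760, plus strand): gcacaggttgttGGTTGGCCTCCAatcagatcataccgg
IAA9 (AT5G65670, chr5:26255101-26255139, plus strand): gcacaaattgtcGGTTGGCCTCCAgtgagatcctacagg
IAA27 (AT4G29080, chr4:14324648-14324686, minus strand): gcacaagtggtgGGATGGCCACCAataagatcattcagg
IAA13 (AT2G33310, chr2:14115227-14115265, minus strand): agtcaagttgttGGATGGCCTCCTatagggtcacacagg
Of the 29 Aux/IAA genes, 23 hold these codons in frame. The 6 without them are IAA20, IAA30, IAA31, IAA32, IAA33 and IAA34, of which IAA34 was not tested and the other 5 did not pass the test in any comparison.

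Receptor genes share another short sequence, the site of the microRNA miR393, which is known to direct cleavage of TIR1, AFB2 and AFB3 transcripts. The mature miR393a-5p (chr2:16652111-16652132, plus strand) is shown with its seed, bases 2 to 8, in capitals, above the best-matching stretch of each receptor's coding sequence, where capitals mark the bases opposite the seed. MIR393B gives the same mature 5p sequence.
miR393a-5p: tCCAAAGGgatcgcattgatcc
TIR1 (AT3G62980, chr3:23273727-23273748, minus strand): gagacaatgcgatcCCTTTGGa
AFB1 (AT4G03190, chr4:1405341-1405362, minus strand): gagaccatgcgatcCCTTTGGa
AFB2 (AT3G26810, chr3:9870237-9870258, plus strand): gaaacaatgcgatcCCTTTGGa
AFB3 (AT1G12820, chr1:4369085-4369106, minus strand): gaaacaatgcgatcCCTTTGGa
AFB5 (AT5G49980, chr5:20335762-20335783, minus strand): ggatctcttgtttcCCTGAGGa
AFB2 and AFB3 each differ from a perfect complement at 2 bases, TIR1 at 3 and AFB1 at 4, with none opposite the seed. The best stretch of AFB5 differs at 8 bases, of which 2 lie opposite the seed. The mature microRNA was not measured, because the libraries were made from polyadenylated RNA.

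GH3.6, GH3.5 and IAA2, the called genes that were lower in both lines, are shown with the 250 bases upstream of their RefSeq start, beside those of their relatives GH3.3 and IAA1, which did not pass the test. Capitals mark the auxin response element letters TGTCTC and TGTCGG, on either strand (GAGACA and CCGACA in the reverse orientation). These elements are known as sites that ARF proteins bind.
GH3.6 (AT5G54510, chr5:22133689-22133938, minus strand): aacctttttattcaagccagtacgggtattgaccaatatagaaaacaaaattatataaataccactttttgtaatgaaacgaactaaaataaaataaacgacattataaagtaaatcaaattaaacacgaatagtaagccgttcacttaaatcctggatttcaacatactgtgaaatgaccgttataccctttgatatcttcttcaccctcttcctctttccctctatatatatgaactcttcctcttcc
GH3.5 (AT4G27260, chr4:13653329-13653578, plus strand): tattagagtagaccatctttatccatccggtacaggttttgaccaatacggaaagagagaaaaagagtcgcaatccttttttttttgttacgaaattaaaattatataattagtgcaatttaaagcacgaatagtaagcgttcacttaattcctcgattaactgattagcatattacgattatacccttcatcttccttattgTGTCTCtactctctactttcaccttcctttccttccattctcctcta
GH3.3 (AT2G23170, chr2:9866563-9866812, minus strand): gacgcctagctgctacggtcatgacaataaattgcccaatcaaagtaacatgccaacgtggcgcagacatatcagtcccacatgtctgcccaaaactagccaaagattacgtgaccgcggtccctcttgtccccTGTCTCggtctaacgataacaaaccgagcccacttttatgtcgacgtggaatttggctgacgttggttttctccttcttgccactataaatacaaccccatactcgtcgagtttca
IAA2 (AT3G23030, chr3:8182096-8182345, minus strand): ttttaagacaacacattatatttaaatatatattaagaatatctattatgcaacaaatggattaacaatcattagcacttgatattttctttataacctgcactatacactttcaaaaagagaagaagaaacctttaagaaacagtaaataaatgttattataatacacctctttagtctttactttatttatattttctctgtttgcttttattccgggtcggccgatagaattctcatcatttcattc
IAA1 (AT4G14560, chr4:8360746-8360995, plus strand): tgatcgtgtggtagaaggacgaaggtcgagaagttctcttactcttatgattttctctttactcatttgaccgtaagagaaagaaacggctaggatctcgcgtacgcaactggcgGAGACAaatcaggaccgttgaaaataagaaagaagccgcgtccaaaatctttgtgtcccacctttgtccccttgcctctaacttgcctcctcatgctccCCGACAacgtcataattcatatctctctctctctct
GH3.5 holds TGTCTC at position -47 from its start and GH3.3 at position -116, and IAA1 holds both motifs. No match was found in the windows of GH3.6 and IAA2, which says that these letters are not in these 250 bases. Among all 27443 promoters of the same length, 10.9% hold TGTCTC, 4.16% hold TGTCGG and 14.7% hold either one. Among the 40 auxin genes, 13 (32.5%) hold TGTCTC, 6 (15%) hold TGTCGG and 17 (42.5%) hold either one, and among the 9 genes that passed the test in at least 1 comparison 5 hold either one. A motif here is a match of letters and was not tested as a binding site.

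Library totals ranged from 37724263 to 54421069 counts, and the TMM-scaled CPM used below (counts scaled to library total and composition) correct for them. A floor of 3 counts, a limit for counting error alone, lay at 0.0541 to 0.0775 CPM. CXE15 lay between 3.73 and 4.12 CPM in the Col-0 libraries and between 739 and 963 CPM in those of AtCXE15-OE. D14 lay between 44.8 and 45.3 CPM in the Col-0 libraries and between 6.48 and 6.92 CPM in those of atd14-1. The rise of CXE15 is what its label implies. D14 was lower in its mutant, but the label alone does not imply a transcript level, as the kind of allele is not given. In whole seedlings, fewer cells of a type and less RNA per cell cannot be told apart. The labels do not tell whether replicate libraries come from different plants or cultures, and p-values then measure only the spread between these libraries, which may be technical.

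Few auxin genes moved in either line, and the GH3 genes GH3.5 and GH3.6 and the repressor gene IAA2 were lower in both. In AtCXE15-OE against Col-0, 0 of the 38 tested genes rose and 3 fell by edgeR's quasi-likelihood test at an adjusted p of 0.05 (Benjamini-Hochberg over all genes tested), which is 7.89% of them where 2.27% of all 21425 genes passed (0.761% higher and 1.51% lower). In atd14-1 against Col-0, 2 rose (IAA9 and IAA13) and 5 fell (IAA2, IAA7, IAA16, GH3.5 and GH3.6), which is 18.4% where 11.9% of all genes passed (5.06% higher and 6.87% lower). Between atd14-1 and AtCXE15-OE, the test of whether the lines differ, 2 were higher in atd14-1 (IAA13 and IAA27) and 4 lower (IAA7, IAA8, IAA16 and GH3.6), 15.8% where 6.94% of all genes passed (2.82% higher and 4.12% lower). The median log2 fold change of the 38 genes was -0.09 in AtCXE15-OE and -0.09 in atd14-1, beside 0.00 and 0.01 over all genes tested. Both comparisons share the 3 Col-0 libraries, and a gene lower in both is not supported independently by each.

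**Figure D1:**
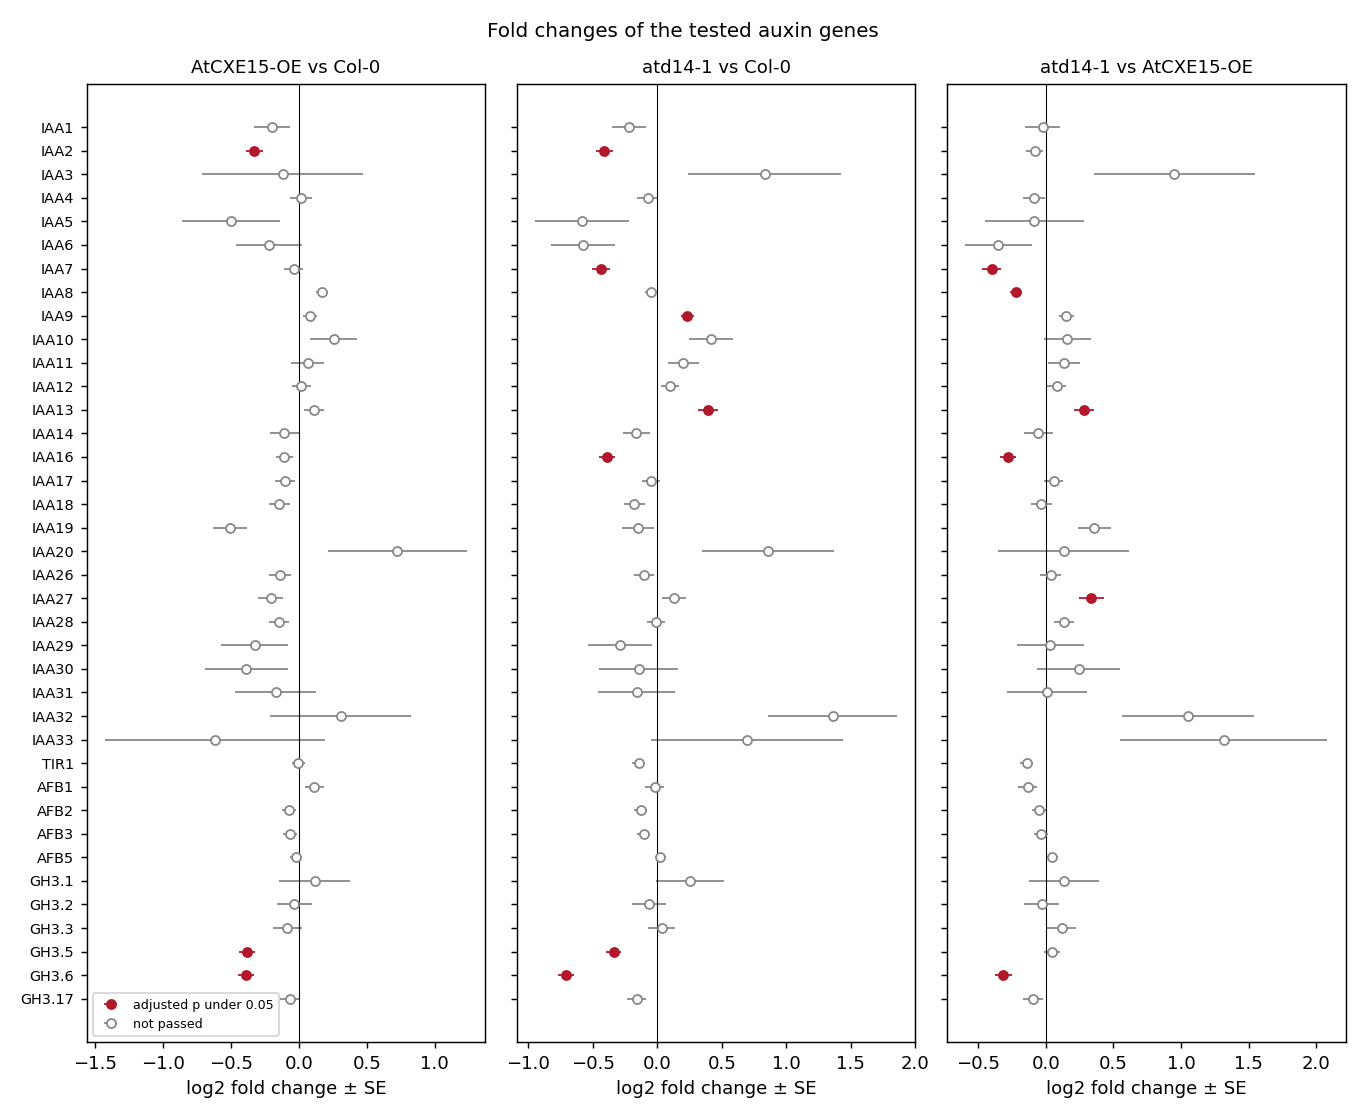
Log2 fold change (x axis, ± SE) of each of the 38 tested auxin genes (y axis) in the 3 comparisons; filled points passed edgeR's test at an adjusted p under 0.05. Filled points are GH3.5, GH3.6 and IAA2 on the left, 7 genes in the middle and 6 on the right, while the widest bars belong to IAA3 and to low-count genes such as IAA33.

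Levels between genes were compared as TMM-scaled CPM per kilobase of the gene length in the table. For some rows that length exceeds the annotated gene, and their levels per kilobase may be too low. IAA14 has a length of 3865 bases, while the annotated gene lies at chr4:8347822-8350263, and the length of IAA3 (1934 bases) also exceeds its annotated span. Among the repressor genes in Col-0, IAA9 (185 ± 7.99 CPM per kb, SD, n = 3) and IAA16 (159 ± 7.26) had the highest levels. IAA7 (93.5 ± 4.84), IAA2 (93.4 ± 2.40) and IAA8 (86.5 ± 2.5) followed, and IAA7 and IAA2 did not differ beyond their spread. These 5 genes made up 67.0% of the summed Aux/IAA level per kilobase, and they are 5 of the 7 Aux/IAA genes that passed the test in some comparison. Estimates are more precise at high counts, so smaller changes can pass there than in genes of low count. In atd14-1 the level of IAA9 was 218 ± 8.34 CPM per kb and that of IAA16 was 122 ± 0.656, so the gap between the first and second ranks was wider than in Col-0. Summed over all 29 genes, Aux/IAA levels were 1283 to 1333 CPM in Col-0, 1241 to 1306 in AtCXE15-OE and 1240 to 1313 in atd14-1. The overlap of atd14-1 with Col-0 rests on atd14-1 replicate 3, in which IAA3 stood apart from the other libraries, as described with that gene. Without it the atd14-1 sums are 1240 and 1244 CPM, below every Col-0 sum. This holds only with the TMM scaling, and with counts divided by library total alone they do not lie below every Col-0 sum.

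Receptor genes spanned a much narrower range. TIR1 had the highest level in Col-0 (49.5 ± 1.02 CPM per kb), followed by AFB5 (38.9 ± 0.875), AFB2 (29.5 ± 1.27), AFB3 (28.5 ± 0.588) and AFB1 (19.8 ± 1.10). AFB2 and AFB3 did not differ beyond their spread, and the order was the same in all 3 groups. Of the GH3 genes, GH3.6 stood first in Col-0 (49.6 ± 2.63 CPM per kb), and GH3.5 (30.8 ± 1.75) and GH3.17 (29.5 ± 0.785) did not differ beyond their spread. GH3.3 (6.25 ± 0.356), GH3.2 (3.67 ± 0.574) and GH3.1 (1.04 ± 0.308), which are known as strongly auxin-inducible genes, were lower. In both lines GH3.17 stood above GH3.5, at 28.2 ± 3.11 against 23.6 ± 0.470 CPM per kb in AtCXE15-OE and 26.4 ± 1.24 against 24.4 ± 1.07 in atd14-1, of which the latter pair overlapped within 1 SD.

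**Figure D2:**
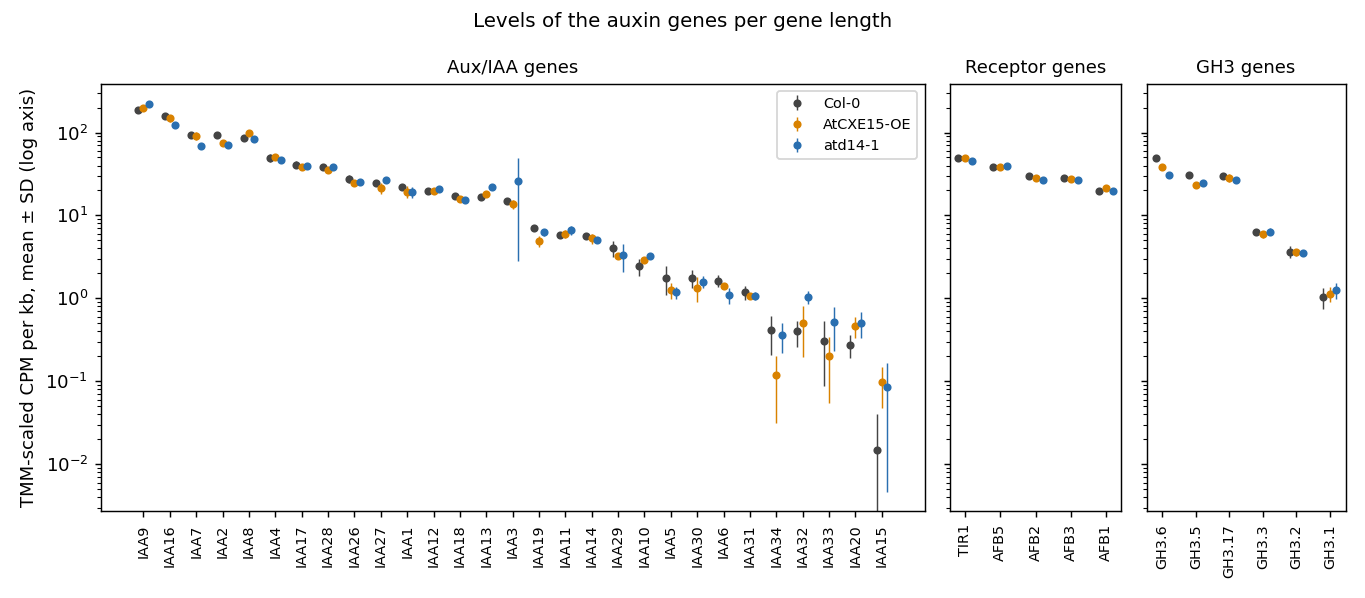
TMM-scaled CPM per kilobase (y axis, log scale; mean ± SD of 3 libraries) of the 40 auxin genes in Col-0, AtCXE15-OE and atd14-1, ordered within each family by the Col-0 level. IAA9 leads the Aux/IAA genes at 185 in Col-0, the receptors lie between 19.8 and 49.5, and the wide bar of IAA3 in atd14-1 comes from 1 library.

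None of the 5 receptor genes passed edgeR's test in any comparison, with 0, 2 and 1 at an unadjusted p under 0.05 in AtCXE15-OE, atd14-1 and the direct comparison, and none passed with limma-voom. TIR1, the founding auxin receptor, stood at 115, 119 and 114 CPM for Col-0, 119, 115 and 112 for AtCXE15-OE, and 100.4, 108 and 106 for atd14-1. The AtCXE15-OE values overlap those of Col-0, whereas all 3 atd14-1 values lie below both other groups. With counts divided by library total alone, without the TMM factors, TIR1 in atd14-1 overlaps Col-0. The log2 fold change of TIR1 was -0.00 ± 0.05 (SE) in AtCXE15-OE (edgeR adjusted p = 0.986) and -0.14 ± 0.05 in atd14-1 (adjusted p = 0.0697). Of 16 alternatives, the atd14-1 change passed only with DESeq2 (adjusted p = 0.0399). Over all 16, its log2 fold changes ran from -0.17 to -0.07, with adjusted p-values up to 0.381.

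AFB2 stood at 76.8, 71.7 and 71 CPM for Col-0, 70.6, 69.2 and 68.5 for AtCXE15-OE, and 64.5, 67.5 and 68.8 for atd14-1. Its highest values were in Col-0 and did not overlap those of either line, but the differences were small (log2 fold change -0.08 ± 0.05 with edgeR adjusted p = 0.597 in AtCXE15-OE, and -0.13 ± 0.05 with adjusted p = 0.132 in atd14-1). AFB3, the receptor most similar to AFB2, with 82.1% identical bases in the aligned coding sequences, was at 62.2, 63.6 and 64.8 CPM for Col-0, 61.6, 61.9 and 58.4 for AtCXE15-OE, and 59.9, 58 and 59.7 for atd14-1. AFB3 also lay higher in Col-0 than in either line without overlap, with log2 fold changes of -0.07 ± 0.05 in AtCXE15-OE (edgeR adjusted p = 0.652) and -0.10 ± 0.05 in atd14-1 (adjusted p = 0.237). For AFB2 and AFB3 the lack of overlap rests on the TMM scaling. With counts divided by library total alone, both genes overlap between Col-0 and each line. How many of all genes tested lack overlap between groups was not counted.

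AFB1, which is known for rapid auxin responses in roots, was at 39.8, 39.2 and 43.4 CPM for Col-0, 41.8, 43.7 and 47 for AtCXE15-OE, and 38, 39.5 and 43.3 for atd14-1. All 3 groups overlapped (log2 fold change 0.11 ± 0.07 with edgeR adjusted p = 0.562 in AtCXE15-OE, and -0.02 ± 0.07 with adjusted p = 0.913 in atd14-1). AFB5, a receptor known for its response to the synthetic auxin picloram, was at 93.3, 94.9 and 97.5 CPM for Col-0, 95.9, 94.5 and 91 for AtCXE15-OE, and 95, 96.3 and 99.5 for atd14-1. Its groups overlapped as well, with log2 fold changes of -0.02 ± 0.05 in AtCXE15-OE (edgeR adjusted p = 0.913) and 0.03 ± 0.05 in atd14-1 (adjusted p = 0.806). Summed over the 5 genes, receptor levels were 387 to 391 CPM in Col-0, 377 to 389 in AtCXE15-OE and 358 to 377 in atd14-1. The atd14-1 sums lie below all Col-0 sums, but this rests on the TMM scaling. The TMM factors were 0.970 to 0.985 in Col-0 and 1.02 to 1.04 in atd14-1. With counts divided by library total alone, the receptor sums of these groups overlap. Log2 fold changes in atd14-1 were below 0 for TIR1, AFB2, AFB3 and AFB1 and above 0 for AFB5. Those of AFB1 and AFB5 were smaller than their SE, and in AtCXE15-OE AFB1 lay above 0 and AFB5 below. None of these changes passed the test, and whether the genes differ in their change was not tested.

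**Figure D3:**
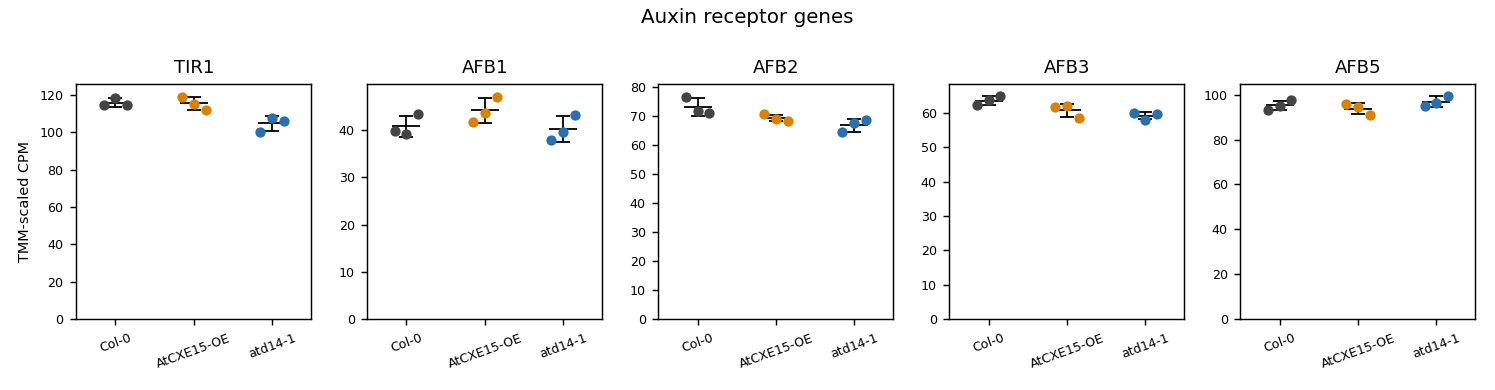
TMM-scaled CPM (y axis, starting at 0) of the 5 receptor genes in each library of the 3 groups, with the mean and SD of each group. TIR1 in atd14-1 lies between 100.4 and 107.7 CPM, below the other 6 libraries, and AFB5 overlaps in all groups.

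Of the 27 tested Aux/IAA genes, 1 fell in AtCXE15-OE, which is 3.7% where 2.27% of all genes passed. In atd14-1 2 rose and 3 fell, which is 18.5% where 11.9% of all genes passed. IAA2, an auxin-inducible repressor, was lower in both lines. It was counted at 87.6, 85.9 and 90.3 CPM for Col-0, 62.9, 73.7 and 73.6 for AtCXE15-OE, and 63.7, 66.6 and 68.3 for atd14-1. All 6 values of the lines lie below the 3 Col-0 values, and the lines overlap each other. It fell 1.25-fold in AtCXE15-OE (log2 fold change -0.33 ± 0.06 SE, edgeR adjusted p = 0.0125) and 1.33-fold in atd14-1 (log2 fold change -0.41 ± 0.06, adjusted p = 0.000612). Without Col-0 replicate 3 the AtCXE15-OE call was lost (log2 fold change -0.31, adjusted p = 0.0552).

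IAA1, which shares 83.6% of its coding bases with IAA2, did not pass the test. Its levels were 18.8, 17.4 and 19.5 CPM for Col-0, 13.8, 15.8 and 19 for AtCXE15-OE, and 14.4, 14.6 and 18.9 for atd14-1. Each line has 1 library within the Col-0 range and 2 below it, with log2 fold changes of -0.20 ± 0.13 in AtCXE15-OE (edgeR adjusted p = 0.581) and -0.22 ± 0.13 in atd14-1 (adjusted p = 0.335). The IAA1 row overlaps 4 other loci of the table, whereas IAA2 overlaps none.

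IAA7, IAA14, IAA16 and IAA17 form a clade in which gain-of-function alleles are known to make plants auxin-resistant, and IAA7 and IAA16 fell in atd14-1. IAA7, known as AXR2, stood at 167, 163 and 180.0 CPM for Col-0, 146, 177 and 174 for AtCXE15-OE, and 122, 124 and 131 for atd14-1. The atd14-1 values all lie below those of the other groups, and AtCXE15-OE overlaps Col-0. IAA7 fell 1.36-fold in atd14-1 (log2 fold change -0.44 ± 0.07 SE, edgeR adjusted p = 0.00078) and did not pass in AtCXE15-OE (-0.04 ± 0.07, adjusted p = 0.893). The lines differed directly in IAA7 (log2 fold change -0.40 ± 0.07, edgeR adjusted p = 0.00341).

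IAA16 was counted at 197, 199.6 and 214 CPM for Col-0, 170.0, 198 and 199 for AtCXE15-OE, and 155, 155 and 157 for atd14-1. The 3 atd14-1 values are nearly equal and lie below all others, and AtCXE15-OE overlaps Col-0 with replicate 1 lowest. It fell 1.31-fold in atd14-1 (log2 fold change -0.39 ± 0.06, edgeR adjusted p = 0.000824), with -0.11 ± 0.06 in AtCXE15-OE (adjusted p = 0.514). The direct difference was -0.28 ± 0.06 (edgeR adjusted p = 0.0145), a call lost without AtCXE15-OE replicate 2 (adjusted p = 0.0641), AtCXE15-OE replicate 3 (0.077), atd14-1 replicate 1 (0.0535) or atd14-1 replicate 2 (0.0573).

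The other genes of that clade did not pass. IAA14, known as SOLITARY ROOT and a repressor of lateral root formation, shares 81.9% of its coding bases with IAA7 and was at 20.6, 20.9 and 24.2 CPM for Col-0, 17.1, 22 and 22 for AtCXE15-OE, and 18, 20.1 and 20.8 for atd14-1. IAA17, known as AXR3, was at 40.6, 44.6 and 48.7 CPM for Col-0, 39.4, 40.6 and 44.5 for AtCXE15-OE, and 43.6, 42.5 and 43.4 for atd14-1. Both genes overlap between all groups, with log2 fold changes in atd14-1 of -0.16 ± 0.11 for IAA14 and -0.05 ± 0.07 for IAA17 (edgeR adjusted p = 0.409 and 0.764). Whether the 4 genes of the clade differ from each other in their change was not tested.

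IAA9, the most abundant Aux/IAA transcript here, rose in atd14-1. Its levels were 305, 312 and 287 CPM for Col-0, 329.9, 312 and 314 for AtCXE15-OE, and 369, 352 and 342 for atd14-1. All atd14-1 values lie above those of the other groups, and AtCXE15-OE overlaps Col-0. The rise was 1.18-fold (log2 fold change 0.23 ± 0.05, edgeR adjusted p = 0.00957), and it was lost without atd14-1 replicate 1 (0.20, adjusted p = 0.0536). The direct difference between the lines was 0.15 ± 0.05 and did not pass (edgeR adjusted p = 0.109), although it did with DESeq2 (0.0358), when scaled by library size alone (0.0269) and without AtCXE15-OE replicate 1 (0.0386).

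IAA8, the closest relative of IAA9 in the list with 69.8% identical coding bases, was at 139, 139 and 146 CPM for Col-0, 161, 158 and 158 for AtCXE15-OE, and 134, 141 and 134 for atd14-1. Here AtCXE15-OE stands above both other groups without overlap, and Col-0 and atd14-1 overlap. Against Col-0, IAA8 in AtCXE15-OE did not pass (log2 fold change 0.17 ± 0.05, edgeR adjusted p = 0.0813), but did with DESeq2 (0.0207) and when scaled by library size alone (0.0428). It was lower in atd14-1 than in AtCXE15-OE (log2 fold change -0.22 ± 0.05, edgeR adjusted p = 0.0106), and without atd14-1 replicate 1 this call was lost (0.0507).

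IAA27, the third gene of that clade, stood at 36.5, 36.3 and 34.6 CPM for Col-0, 36.3, 29.9 and 26.9 for AtCXE15-OE, and 40.3, 39.9 and 37.3 for atd14-1. AtCXE15-OE spreads widely, from a value within the Col-0 range in replicate 1 to the lowest of all in replicate 3, and atd14-1 lies above both groups. It passed in the direct comparison (log2 fold change 0.34 ± 0.09, edgeR adjusted p = 0.0412) and against Col-0 in neither line (-0.21 ± 0.09 and 0.13 ± 0.09, adjusted p = 0.359 and 0.434). The direct call was lost without AtCXE15-OE replicate 2 (adjusted p = 0.147) or replicate 3 (0.170) and without atd14-1 replicate 1 (0.132), replicate 2 (0.130) or replicate 3 (0.068). Without AtCXE15-OE replicate 1, IAA27 passed as lower in AtCXE15-OE than in Col-0 (log2 fold change -0.33, adjusted p = 0.0276). Summing IAA27 with the 1 overlapping locus moved the direct log2 fold change to 0.13 (adjusted p = 0.169), and the call was lost with limma-voom (0.0523) and with the 6 libraries alone (0.0866).

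IAA13, whose relative IAA12 (BODENLOS) is known from embryonic root formation, rose in atd14-1. It was at 39.4, 34.2 and 34.1 CPM for Col-0, 41.7, 37.8 and 37 for AtCXE15-OE, and 45.4, 50.1 and 45.9 for atd14-1. The atd14-1 values lie above all others, and AtCXE15-OE overlaps Col-0. The rise was 1.31-fold (log2 fold change 0.39 ± 0.08, edgeR adjusted p = 0.00345), and it passed in every alternative that gave IAA13 a value. The IAA13 row overlaps 2 other loci of the table. The direct difference was 0.28 ± 0.08 (adjusted p = 0.0401), and this call was lost without AtCXE15-OE replicate 2 (0.142) or replicate 3 (0.156), or without atd14-1 replicate 1 (0.0721), replicate 2 (0.174) or replicate 3 (0.0818). IAA12, with 81.2% identical coding bases, overlapped between all groups (27.6, 27.9 and 26.7 CPM for Col-0, 28.9, 28.7 and 25.8 for AtCXE15-OE, and 27.9, 30 and 30.2 for atd14-1), and its log2 fold change in atd14-1 was 0.10 ± 0.07 (edgeR adjusted p = 0.434).

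**Figure D4:**
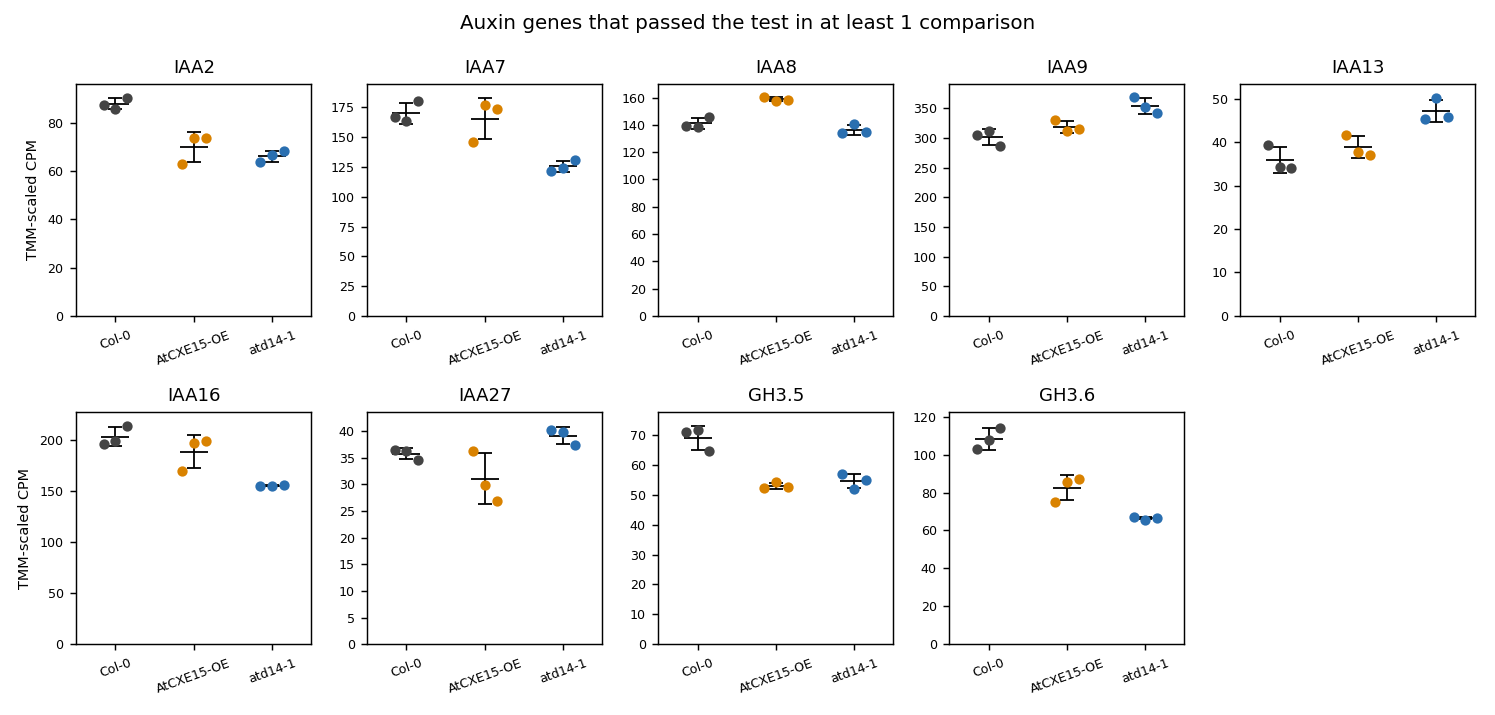
TMM-scaled CPM (y axis, starting at 0) in each library of the 9 auxin genes that passed the test in at least 1 comparison, with the mean and SD of each group. GH3.5 and IAA2 are lower in both lines, GH3.6 falls further in atd14-1, and IAA7 and IAA16 are lower in atd14-1 and overlap Col-0 in AtCXE15-OE.

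The remaining Aux/IAA genes did not pass, and some lay close to the threshold. IAA19, also called MSG2 and known from hypocotyl tropisms, stood at 10.6, 11.4 and 10.8 CPM for Col-0, 7.56, 6.6 and 8.9 for AtCXE15-OE, and 10.4, 8.81 and 10.4 for atd14-1. The AtCXE15-OE values lie below all Col-0 values and overlap those of atd14-1. Its log2 fold change in AtCXE15-OE was -0.51 ± 0.12 (edgeR adjusted p = 0.0504), which passed in 8 of 16 alternatives, with adjusted p-values of 0.0107 to 0.178 over all of them. Leaving out AtCXE15-OE replicate 3 gave -0.63 (adjusted p = 0.0327). Of the same clade, IAA5 had a log2 fold change of -0.50 ± 0.36 in AtCXE15-OE and -0.58 ± 0.36 in atd14-1, and IAA6 of -0.22 ± 0.24 and -0.57 ± 0.25, with edgeR adjusted p-values of 0.17 or more. IAA10 in atd14-1 (0.42 ± 0.17, adjusted p = 0.154) passed without Col-0 replicate 1 (0.63, adjusted p = 0.0336).

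IAA3, known as SHY2, depended on 1 library. It was at 30.5, 26.8 and 28.6 CPM for Col-0, 22.5, 29 and 27.7 for AtCXE15-OE, and 25, 24.4 and 104 for atd14-1. Replicate 3 of atd14-1, with a count of 4780, is 3.39 times the highest of the other 8 libraries, and the other atd14-1 values lie below the Col-0 range. The log2 fold change in atd14-1 was 0.83 ± 0.59 with all libraries (edgeR adjusted p = 0.478) and -0.21 without that replicate (adjusted p = 0.269). In the deposited table the row of IAA3 extends from 753410 to 1129551 on chromosome 1 and overlaps 112 other loci, while the annotated gene lies at chr1:1128149-1129689. Counts from those loci may be in this row, and their part in the value was not tested.

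A group of 5 Aux/IAA genes had counts of 45 or fewer in every library. IAA15 had 0 to 4 counts, IAA33 2 to 17, IAA34 2 to 14, IAA20 7 to 24 and IAA32 9 to 45. Of these, IAA20, IAA32, IAA33 and IAA34 lack the degron core codons and belong to the non-canonical repressors, of which IAA32 and IAA34 are known from apical hook development. IAA32 was at 0.236, 0.335 and 0.476 CPM for Col-0, 0.703, 0.166 and 0.449 for AtCXE15-OE, and 1.01, 0.722 and 0.976 for atd14-1. All 3 atd14-1 values lie above the others, but the estimate is imprecise (log2 fold change 1.36 ± 0.50 SE, edgeR adjusted p = 0.105, or 0.0495 with the 6 libraries alone). IAA15 was at or under a count of 3 in every Col-0 library, with 0, 0 and 1 counts, so no fold change is given. The other tested Aux/IAA genes, IAA4, IAA11, IAA18, IAA26, IAA28, IAA29, IAA30 and IAA31, had edgeR adjusted p-values above the threshold in every comparison and setting tried.

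Of the 6 GH3 genes, 2 (33.3%) fell in both lines, where 1.51% of all genes fell in AtCXE15-OE and 6.87% in atd14-1. GH3.6, known as DFL1, had the largest change of all 9 called genes. It stood at 103, 108 and 114 CPM for Col-0, 75, 85.7 and 87.3 for AtCXE15-OE, and 66.9, 65.8 and 66.8 for atd14-1. The groups do not overlap, with Col-0 highest, AtCXE15-OE between and atd14-1 lowest. GH3.6 fell 1.31-fold in AtCXE15-OE (log2 fold change -0.39 ± 0.06 SE, edgeR adjusted p = 0.00345) and 1.63-fold in atd14-1 (-0.70 ± 0.06, adjusted p = 5.8e-06). The lines differed from each other (log2 fold change -0.31 ± 0.06, edgeR adjusted p = 0.00743), and all 3 calls held in every alternative tried.

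GH3.5, known as WES1, shares 84.1% of its coding bases with GH3.6 and acts on auxin and salicylic acid. It was counted at 71, 71.7 and 64.6 CPM for Col-0, 52.2, 54.2 and 52.6 for AtCXE15-OE, and 56.8, 52.1 and 55.1 for atd14-1. All 6 values of the lines lie below those of Col-0, and the lines overlap. It fell 1.3-fold in AtCXE15-OE (log2 fold change -0.38 ± 0.06, edgeR adjusted p = 0.0028) and 1.26-fold in atd14-1 (-0.34 ± 0.06, adjusted p = 0.00159), also in every alternative. The direct difference was 0.05 ± 0.06 (edgeR adjusted p = 0.741). GH3.5 and GH3.6 overlap no other locus of the table, but reads from their most similar stretches could have been assigned to either.

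The other GH3 genes did not pass. GH3.17, which prefers glutamate, stood at 63.7, 67.1 and 64.8 CPM for Col-0, 54.4, 66.3 and 66.4 for AtCXE15-OE, and 59, 55.4 and 60.7 for atd14-1. Its atd14-1 values lie below all Col-0 values, and AtCXE15-OE overlaps both groups (log2 fold change -0.06 ± 0.07 with edgeR adjusted p = 0.8 in AtCXE15-OE, and -0.16 ± 0.07 with adjusted p = 0.199 in atd14-1). GH3.3 was at 12.5, 14 and 13.2 CPM for Col-0, 12.3, 13.8 and 11.4 for AtCXE15-OE, and 13.8, 12.1 and 14.7 for atd14-1. GH3.2 was at 9.47, 6.95 and 7.95 CPM for Col-0, 7.61, 7.45 and 8.76 for AtCXE15-OE, and 7.93, 7.76 and 7.66 for atd14-1. GH3.1 was at 2.79, 1.52 and 2.14 CPM for Col-0, 2.83, 1.86 and 2.32 for AtCXE15-OE, and 2.48, 2.06 and 3.2 for atd14-1. These 3 auxin-inducible genes overlapped between all groups, with log2 fold changes of 0.25 ± 0.26, -0.06 ± 0.13 and 0.03 ± 0.11 in atd14-1 for GH3.1, GH3.2 and GH3.3 and edgeR adjusted p-values of 0.605 or more in every comparison. Summed over the 6 genes, GH3 levels were 262 to 269 CPM in Col-0, 204 to 229 in AtCXE15-OE and 195 to 208 in atd14-1, and most of the sum comes from GH3.6, GH3.5 and GH3.17.

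Other genes of the pathway were set beside the 40. Over all genes tested, 2.27% passed in AtCXE15-OE and 11.9% in atd14-1. Of 16 tested ARF genes, which encode the factors that Aux/IAA proteins repress, 0 passed in AtCXE15-OE by edgeR, DESeq2 or limma-voom, with 4 at an unadjusted p under 0.05 by edgeR. In atd14-1 4 ARF genes rose (ARF18, ARF6, ARF4 and ARF3, while 2 rose with limma-voom and 5 with DESeq2) and 1 fell, which is 31.2% of the 16. The one that fell was ARF8, a target of miR167 known to promote GH3 expression, at 71.9, 76 and 72 CPM for Col-0, 75.1, 76.3 and 72.8 for AtCXE15-OE, and 44.3, 43.1 and 42.9 for atd14-1. The atd14-1 values lie far below the other groups, which overlap, with log2 fold changes of -0.75 ± 0.05 against Col-0 (edgeR adjusted p = 5.87e-07) and -0.78 ± 0.05 against AtCXE15-OE (adjusted p = 1.21e-06). ARF6, also a miR167 target, rose by 0.31 ± 0.06 on the log2 scale in atd14-1 (edgeR adjusted p = 0.0032), ARF18 by 0.37 ± 0.07 (adjusted p = 0.00278) and ARF4 by 0.22 ± 0.06 (adjusted p = 0.036). ARF4 no longer passed when any Col-0 library was left out (adjusted p of 0.0538, 0.0832 and 0.122 without replicates 1, 2 and 3), without atd14-1 replicate 1 (0.154), without atd14-1 replicate 2 (0.0817) or with limma-voom (0.056).

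Of 34 tested SAUR and other early auxin response genes, 0 passed in AtCXE15-OE by edgeR and limma-voom and 1 by DESeq2, with 4 at an unadjusted p under 0.05 by edgeR. In atd14-1 2 rose and 7 fell by edgeR, which is 26.5% where 11.9% of all genes passed, while 4 fell with limma-voom and 9 with DESeq2. The 7 that fell are SAUR genes, which are mostly tied to cell expansion, among them SAUR16 (-0.65 ± 0.10, edgeR adjusted p = 0.000632) and SAUR23 (-0.99 ± 0.20, adjusted p = 0.00511). The vascular regulators HB-8 (0.59 ± 0.09, adjusted p = 0.00106) and TMO5 (0.62 ± 0.10, adjusted p = 0.0013), which act downstream of auxin, rose. The median log2 fold change of the list was -0.34 in atd14-1 and -0.14 in AtCXE15-OE. Of 12 tested genes of the SCF complex and the co-repressors, 0 passed in any comparison by edgeR, DESeq2 or limma-voom, with 1, 1 and 0 by edgeR at an unadjusted p under 0.05 in AtCXE15-OE, atd14-1 and the direct comparison. Scaled by library size alone, TPR2, TPR4 and CAND1 of this list passed as higher in atd14-1 (adjusted p = 0.00585, 0.0454 and 0.0362).

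Of 13 tested genes of auxin synthesis and of the hydrolysis of auxin conjugates, 0 passed in AtCXE15-OE by edgeR and limma-voom, with 1 at an unadjusted p under 0.05 by edgeR, and 1 passed in atd14-1 by edgeR and 0 by limma-voom. By DESeq2, 1 passed as lower in AtCXE15-OE and 2 in atd14-1. YUC2, a flavin monooxygenase gene of auxin synthesis, fell in atd14-1 (-0.65 ± 0.19, edgeR adjusted p = 0.035), and the call was lost without any 1 of the 6 libraries compared (adjusted p of 0.103, 0.0867 and 0.0635 without Col-0 replicates 1 to 3, and 0.0976, 0.130 and 0.0603 without those of atd14-1), with limma-voom (0.0632) and when scaled by library size alone (0.0567). YUC5 in AtCXE15-OE had a log2 fold change of -0.95 ± 0.25 (adjusted p = 0.0655) and passed with DESeq2 (0.023) and without AtCXE15-OE replicate 3 (0.0498). Of 4 tested genes of other GH3 enzymes and AFB4, GH3.9 fell in atd14-1 (-0.55 ± 0.12, edgeR adjusted p = 0.00803), while JAR1, which conjugates jasmonate, did not pass (0.13 ± 0.05, adjusted p = 0.144).

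**Figure D5:**
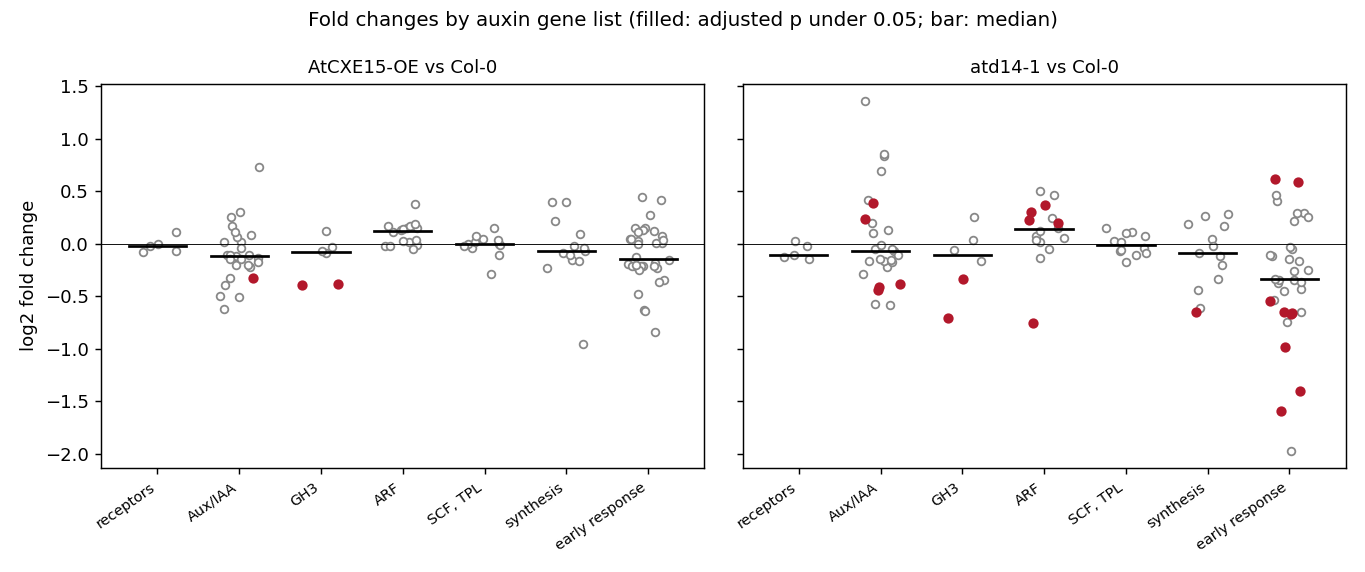
Log2 fold change (y axis) of each tested gene of the auxin lists (x axis) in AtCXE15-OE (left) and atd14-1 (right) against Col-0; filled points passed edgeR's test at an adjusted p under 0.05 and bars are medians. On the left filled points appear among the Aux/IAA and GH3 genes, and on the right also among ARF, synthesis and early response genes, where the bar of the early response genes lies at -0.34.

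Marker lists moved with the lines beside these genes. Their counts stand beside 2.27% of all genes passing in AtCXE15-OE and 11.9% in atd14-1. Of 12 touch and wounding genes, 11 fell in AtCXE15-OE and 11 in atd14-1, with summed levels of 929 to 963 CPM in Col-0, 519 to 551 in AtCXE15-OE and 527 to 578 in atd14-1. Of 13 green tissue genes, 0 passed in AtCXE15-OE by edgeR (3 at an unadjusted p under 0.05; 1 passed by DESeq2 and 0 by limma-voom) and 11 fell in atd14-1, with sums of 37902 to 39785, 31145 to 38455 and 27898 to 31444 CPM. The lowest AtCXE15-OE sum is that of replicate 2, and the other two (35804 and 38455 CPM) lie above every atd14-1 sum. In that replicate PSAD-1, a photosystem I gene singled out after its values were seen, had a count of 119, or 2.2 CPM against 1958 and 1867 in replicates 1 and 3. Of 14 clock genes, 2 rose and 2 fell in AtCXE15-OE, and 2 rose and 8 fell in atd14-1, with sums of 1165 to 1250, 1103 to 1235 and 911 to 930 CPM. Of 14 root genes 0 passed in any comparison by edgeR, with 0, 1 and 2 at an unadjusted p under 0.05 (by DESeq2 0, 1 and 1 passed, and 0 by limma-voom), and their sums were 320 to 341, 304 to 323 and 339 to 352 CPM. No list was at 0 in any group. The part of handling, harvest hour or tissue balance in the changes of GH3.5, GH3.6, IAA2 and the other auxin genes was not tested, and such differences between groups cannot be told apart from genotype.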

How the data were processed

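The deposited table holds whole-number counts per gene for 9 libraries of polyadenylated RNA, which the authors did not normalize. Per the submitters' processing notes, the build was TAIR10 and the tools included HISAT2, SAMtools 0.1.18, Picard and DESeq 1.39.0. Which tool counted reads, and how it treated strand and multiple matches, is not given in the sources used here, and overlapping or similar genes may share counts.

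From these counts, edgeR 4.0.16 in R 4.3.3 (robust quasi-likelihood fit, TMM, filterByExpr) tested 21425 genes in 1 fit of all 9 libraries, with Benjamini-Hochberg adjustment and a threshold of 0.05. The SE of a log2 fold change is its size divided by the square root of F and is approximate. The members, lists and rules were chosen with earlier results of these data known, and membership used no threshold on them. Named genes were all members, up to 4 genes with the smallest adjusted p of each pathway list, the first marker genes by the same order, and CXE15 and D14. ARF3 and PSAD-1 were named outside this rule. A script for the test was tested on simulated data. Of the listed genes, 4 were left out because the annotation gives no matching symbol, among them both auxin oxidation genes (DAO1 and DAO2).

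Alternatives were DESeq2 1.42.0, limma-voom (limma 3.58.1), other scalings and filters, a replicate block, sums of overlapping loci and each library left out. Replicate numbers do not pair the libraries by the labels.

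Sequences came from the RefSeq genome TAIR10.1, of which 26685 protein-coding loci matched the table, with 4700 rows at both annotated ends and 12269 at 1 or more. The table's highest ends lie within its chromosome lengths. Protein sequences were not used here.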

Additional observations from a re-analysis of the deposited data

Results flagged for a closer look

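The items here are named genes that differed between the lines by edgeR's direct test of atd14-1 against AtCXE15-OE, given as log2 fold changes of that comparison, and no explanation was tested. Among the auxin genes these were IAA7 (-0.40), IAA8 (-0.22), IAA13 (0.28), IAA16 (-0.28), IAA27 (0.34) and GH3.6 (-0.31). Among the pathway genes they were ARF8 (-0.78), SAUR16 (-0.52), SAUR23 (-0.78), TMO5 (0.57), HB-8 (0.48) and GH3.9 (-0.57). The marker genes were LHCA1 (-0.61), LHCB3 (-0.49), CCA1 (-0.39) and LNK2 (-0.80), and the overexpressed and mutated genes were CXE15 (-8.08) and D14 (-2.72). Of these, SAUR23 (edgeR adjusted p = 0.0335) was lost without any AtCXE15-OE library (adjusted p of 0.0665, 0.0972 and 0.0535 without replicates 1, 2 and 3), without atd14-1 replicate 1 (0.108) or without atd14-1 replicate 2 (0.129), with limma-voom (0.0528) and with the 6 libraries alone (0.0501). GH3.9 (adjusted p = 0.0107) was lost without atd14-1 replicate 2 (0.0596).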

How the results depend on the processing

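In AtCXE15-OE, 487 genes passed, and 821 did with DESeq2 and 203 with overlapping loci summed. In atd14-1 2556 passed, and 944 did with overlapping loci summed; between the lines 1486 passed, and 588 did in those sums, where fewer loci were tested and 20 auxin genes had no value. The auxin genes higher in AtCXE15-OE went from 0 to 1 when scaled by library size alone and with DESeq2 (IAA8 in each). Those higher in atd14-1 than in Col-0 went from 2 to 1 with overlapping loci summed, because IAA13 had no value there. Those higher in atd14-1 than in AtCXE15-OE went from 2 to 1 with limma-voom and with the 6 libraries alone. They also went to 1 with overlapping loci of up to 20 kb summed (an alternative chosen after seeing the data). With all overlapping loci summed they went to 0, where IAA27 did not pass and IAA13 again had no value. With DESeq2 and when scaled by library size alone they went to 3, where IAA9 passed. Leaving out 1 library gave 287 to 586 genes in AtCXE15-OE (0 auxin genes higher, 2 to 4 lower), 1704 to 1917 in atd14-1 (1 to 3 and 5) and 769 to 2216 between the lines (0 to 3 and 2 to 4). Scaled by library size alone, 220 genes rose and 274 fell in AtCXE15-OE (163 and 324 with TMM), 2241 and 968 in atd14-1 (1084 and 1472) and 1060 and 551 between the lines (604 and 882). With the replicate block, 461, 2576 and 1561 genes passed and 4, 7 and 6 auxin genes. Same-numbered libraries did not deviate together (correlations of -0.07 to 0.06), so the block is no pairing. No called difference of a named gene reversed among the alternatives run, but genes that were not called changed sign in some of them, such as IAA3 in atd14-1 (-0.21 to 1.17) and IAA33 in AtCXE15-OE (-1.36 to 0.14). Counts of a few reads limit IAA15, IAA20, IAA32, IAA33 and IAA34. The cause of these shifts was not tested.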
